A study of Homo sapiens with 8 samples.

Results

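The comparison of CBAP knockdown with control Jurkat cells was drawn from 4 of the 8 RNA-seq libraries of the series. Jurkat is an established human line of leukemic T cells, used as a model of T-ALL, the acute leukemia of T-cell precursors. The 2 sh-Ctrl libraries came from cells that carried a non-targeted control shRNA, and the 2 sh-CBAP libraries from cells that carried an shRNA against CBAP. Both shRNAs were delivered by lentivirus, and the methods describe puromycin selection of stably transduced cells. Each library carries its own clone code (C1 and C11 for sh-Ctrl, C17 and C29 for sh-CBAP), so that a lasting difference between clones and the effect of the shRNA cannot be told apart. Which of the 2 CBAP shRNAs of the study the sequenced cells carried is not given in the sources used here, and no further treatment or time point is named for them. The other 4 libraries, 2 of CBAP knockout (CBAP-KO) cells made with CRISPR/Cas9 and 2 of such cells reconstituted with CBAP, are called the CRISPR set and were used only where a change is compared with theirs. Members were all genes with a mean FPKM (sequenced fragments of a gene, scaled to its length and to the mapped fragments of the library) of at least 1 over the 4 shRNA libraries, which kept 11223 of the 13453 names in the table. Next to this limit, ZNF792 was kept at a mean FPKM of 1.001 and NEK3 was left out at 0.9999.

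CBAP, encoded by TMEM102, is a protein that the study linked to the RAS-ERK and the AKT, TSC2 and mTORC1 pathways in leukemic T cells. The mTORC1 kinase complex stimulates protein, lipid and nucleotide synthesis when nutrients and growth signals are present. One of its known outputs is SREBP, a pair of membrane-bound transcription factors (genes SREBF1 and SREBF2) that are released when sterols are scarce and switch on the enzymes of cholesterol and fatty acid synthesis. The comparison asks which transcripts of such pathways, and of the T-ALL cell itself, differ once CBAP is reduced.

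Because FPKM keeps no read totals, the depth behind each value is unknown, and precision rests on 2 libraries a group. The FPKM values summed to between 362082 and 389679 per library, and 1182 to 1256 names per library were listed at 0. Taken over the tested genes, which are no replicates of each other, Pearson's r of log2(FPKM + 1) was 0.950 between the sh-Ctrl libraries, 0.918 between the sh-CBAP libraries and 0.907 to 0.932 between libraries of different groups. The correlation within sh-CBAP thus lay inside the range found between the groups. The median absolute difference between the libraries of a group was 0.117 on the log2 scale for sh-Ctrl and 0.178 for sh-CBAP. sh-CBAP replicate 1 had the lowest median level, 3.64 on the log2(FPKM + 1) scale against 3.74 to 3.75 in the other 3 libraries. No 2 libraries shared an equal value above 0, and each was counted as 1 replicate.

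T-cell identity was checked on 12 marker genes, 11 of which were in the table. Their summed FPKM was 1666 and 1717 in sh-Ctrl cells and 1721 and 1915 in sh-CBAP cells, led by CD3D of the T-cell receptor complex (mean 488.5). Of the B-cell panel 3 of 7 genes were in the table, with sums of 22.5 to 32.6 in the 4 libraries. None of the 8 myeloid markers was in the table. Of the erythroid panel 2 of 8 genes summed to 0 to 6.56, of the NK panel 2 of 6 summed to 4.79 to 19.8, and of the epithelial and fibroblast panel 3 of 10 summed to 1.13 to 1.88.

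TMEM102, the targeted gene, is annotated on GRCh37 chromosome 17, plus strand, from 7338754 to 7340998. Its FPKM was 4.07 and 4.74 in the sh-Ctrl libraries and 2.69 and 2.89 in the sh-CBAP libraries. Both sh-CBAP libraries thus lay below both controls, with a ratio of the means of 0.634. On the log2(FPKM + 1) scale, which understates the change of low genes, the log2 fold change was -0.51 (standard error 0.15), and the unadjusted p was 0.0123 with an adjusted p of 0.157 (limma with Benjamini-Hochberg adjustment over all genes tested, as for every adjusted p given here). TMEM102 did not pass the threshold of 0.05 in this fit, although it did, at an adjusted p of 0.0302 from limma, when the variance was estimated from all 8 libraries. An exact permutation test of 2 against 2 libraries has 6 assignments and cannot go below a two-sided p of 0.333. In the CRISPR set its listed value was 0 throughout.

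Across the 11223 genes, 243 (2.17%) passed an adjusted p of 0.05, 107 higher (0.953%) and 136 lower (1.21%) in sh-CBAP cells. The split depended on the scaling, since 92 were higher and 40 lower after quantile normalization, and 88 and 38 after scaling to the upper quartile. The groups did not overlap for 1969 genes higher (17.5%) and 3726 genes lower (33.2%) in sh-CBAP cells, and the median log2 fold change of all genes was -0.06. An unadjusted p under 0.05 was found for 598 genes higher (5.33%) and 1380 genes lower (12.3%). Leaving out 1 library in turn left 140 to 231 calls. Without sh-CBAP replicate 1, 27 of the values for named genes no longer passed, and without sh-CBAP replicate 2, 29 did not, among them in both cases HMGCS1, TRAT1, CD2, SCD, FADS2, UBE2C and NDC80, which are given below with their values in every library. DSE and NPW no longer passed without either sh-Ctrl library, and TCF7, RAP1B, ITGAL and NDC80 did not pass whichever of the 4 libraries was left out.

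Listed zeros set a part of these calls apart, since some genes with a high FPKM in 1 library were listed at 0 in the other library of the pair. HMGA1, a chromatin protein of dividing cells, read 502 and 488 in sh-Ctrl, 0 in sh-CBAP replicate 1 and 407 in sh-CBAP replicate 2. Of the genes tested, 376 were listed at 0 in only 1 library of a pair, and 268 of them had an absolute log2 fold change above 1, but only SLC4A5 passed the threshold (3.33 and 4.44 against 0 and 0.625). A further 63 genes were listed at 0 in both libraries of a group, of which 59 passed. The remaining 10784 genes, with no listed 0, gave 183 calls, 60 higher with a median log2 fold change of 1.13 and 123 lower with a median of -0.91. The groups did not overlap for any of the 60 or the 123, so a lack of overlap adds nothing to a call. The results below rest on these 183 genes, and the genes listed at 0 are described apart. In the plot of change against level they form the straight edges, away from the bulk of the genes.

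**Figure D1:**
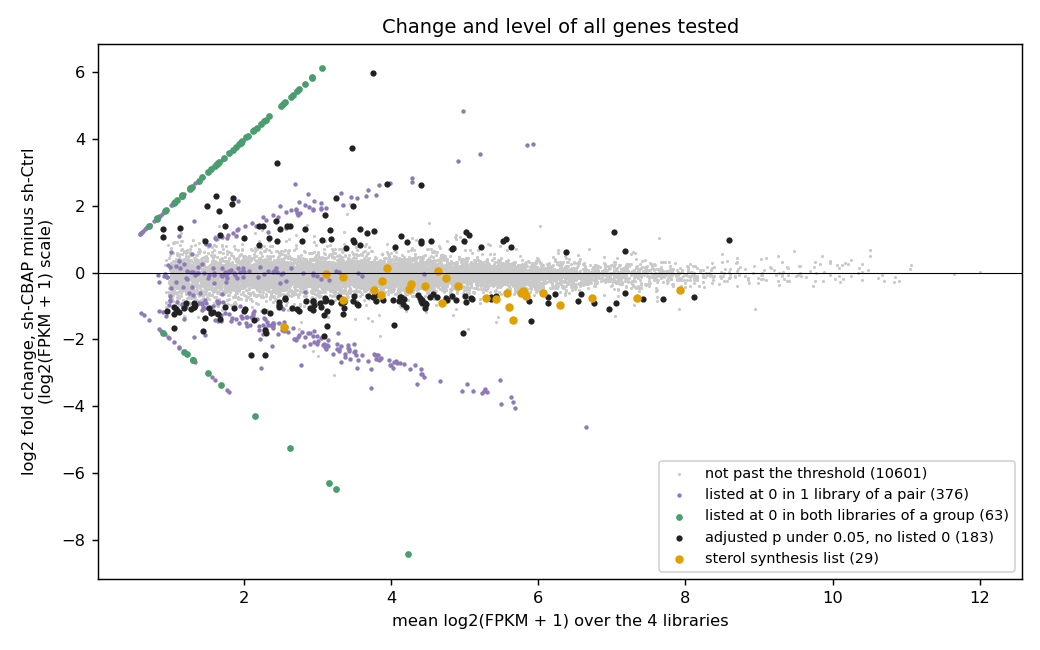
Each point is 1 of the 11223 genes tested, with the mean log2(FPKM + 1) over the 4 libraries on the x axis and the log2 fold change, sh-CBAP minus sh-Ctrl, on the y axis. Black points are the 183 genes past an adjusted p of 0.05 with no listed 0, green points the 63 listed at 0 in both libraries of a group, violet points the 376 listed at 0 in 1 library of a pair, and yellow points the 29 genes of the sterol synthesis list, 27 of which lie below 0.

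The sterol pathway held the most calls of any of the 30 gene lists. The sterol list had 29 tested genes, of which 9 fell, among them ACAT2, HMGCS1, MVK, MVD, FDPS, LSS, CYP51A1 and EBP, and none rose, against 1.21% lower over all genes. In 23 of the 29 (79.3%) both sh-CBAP libraries lay below both sh-Ctrl libraries, against 33.2% of all genes, and 22 (75.9%) had an unadjusted p under 0.05 with a lower level, against 12.3%. The median log2 fold change was -0.60, against -0.06 over all genes, and 27 of the 29 were below 0, against 60.0% of all genes. The list holds genes that share regulators, so its members are not independent of each other.

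The promoters of the called sterol enzymes are shown because the factor NF-Y, which binds the CCAAT box, is a known partner of SREBP at sterol genes. The 3 windows below belong to the called genes with the largest change whose RefSeq window holds that box. They are given on GRCh38.p14 as RefSeq has it, each from upstream of the start site to just beyond it, 5′ to 3′ on the strand of the gene, with every CCAAT or its reverse complement ATTGG in capitals.
HMGCS1, chr5:43313363-43313662 (- strand): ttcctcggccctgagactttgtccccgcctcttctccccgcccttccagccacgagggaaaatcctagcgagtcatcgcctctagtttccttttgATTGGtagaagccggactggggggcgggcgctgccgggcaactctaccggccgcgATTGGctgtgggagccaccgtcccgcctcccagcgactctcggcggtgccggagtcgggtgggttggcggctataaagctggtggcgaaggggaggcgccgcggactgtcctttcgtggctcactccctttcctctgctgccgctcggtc
MVD, chr16:88663042-88663341 (- strand): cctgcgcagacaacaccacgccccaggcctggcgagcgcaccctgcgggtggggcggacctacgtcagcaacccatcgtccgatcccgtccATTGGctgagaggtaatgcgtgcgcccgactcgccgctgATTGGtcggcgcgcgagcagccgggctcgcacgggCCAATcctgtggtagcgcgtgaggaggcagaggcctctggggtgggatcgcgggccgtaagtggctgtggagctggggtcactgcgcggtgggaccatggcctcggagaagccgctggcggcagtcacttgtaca
MVK, chr12:109573544-109573843 (+ strand): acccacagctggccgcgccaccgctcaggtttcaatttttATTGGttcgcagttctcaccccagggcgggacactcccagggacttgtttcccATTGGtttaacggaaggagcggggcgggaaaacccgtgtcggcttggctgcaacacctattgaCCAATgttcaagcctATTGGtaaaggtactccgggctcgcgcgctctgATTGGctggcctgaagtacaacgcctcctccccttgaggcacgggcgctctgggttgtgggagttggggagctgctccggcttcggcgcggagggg

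The HMGCS1 window held 2 such boxes, the MVD window 3 and the MVK window 5. A window was found for 23 of the 29 sterol genes, and CCAAT on either strand was in 18 of them (78.3%). The same letters were in the windows of 43.8% of the 8697 tested genes that have one, and in 34.6% of all 35116 windows. Of the 7 called genes with a window, 6 held the box. A sequence of the sterol response element type, written TCACNCCAC on either strand with N for any base, was in 1 of the 23 (SREBF2) and in 1.44% of the tested genes. These letters are a description of the windows, which are short, and of no binding.

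The first steps of the pathway build mevalonate from acetyl-CoA. ACAT2, which joins 2 acetyl-CoA units, read 111 and 107 FPKM in sh-Ctrl and 49.4 and 61.9 in sh-CBAP cells (log2 fold change -0.96, standard error 0.14, adjusted p = 0.022). HMGCS1, which makes HMG-CoA and is annotated on chromosome 5, minus strand, from 43287572 to 43313614, read 88.9 and 74.9 against 24.8 and 35.5 (log2 fold change -1.43, standard error 0.19, adjusted p = 0.0285). The groups did not overlap for either enzyme, and sh-CBAP replicate 1 held the lowest value of both.

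Mevalonate is then phosphorylated and condensed to the isoprenoid chains from which squalene is made. MVK, mevalonate kinase, read 13.3 and 11.7 in sh-Ctrl and 6.96 and 6.25 in sh-CBAP cells (-0.82, adjusted p = 0.0359), and MVD, the decarboxylase, read 34.3 and 34.1 against 18.9 and 17.0 (-0.90, adjusted p = 0.0178). FDPS, farnesyl diphosphate synthase, was among the most abundant, at 211 and 212 against 121 and 127 (-0.77, standard error 0.10, adjusted p = 0.0176). Each of the 3 was lower in both sh-CBAP libraries than in either control. IDI1 (-0.70, adjusted p = 0.0982) and FDFT1, squalene synthase (-0.52, adjusted p = 0.131), did not pass, and PMVK, the kinase between MVK and MVD, overlapped between the groups (lowest and highest value, 24.02 and 31.5, both in sh-Ctrl). GGPS1, which turns the same precursor toward protein prenylation, had a log2 fold change of 0.14 (adjusted p = 0.622).

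The late steps close squalene into lanosterol and trim it to cholesterol. CYP51A1, lanosterol demethylase, had the largest change of the list, from 9.47 and 8.96 to 1.90 and 2.79 (-1.62, standard error 0.17, adjusted p = 0.00562). Its annotated span on chromosome 7, minus strand, overlaps AKAP9 on the other strand, which read 5.56 and 5.23 against 4.81 and 5.58. LSS, lanosterol synthase, read 48.8 and 50.6 against 26.3 and 32.0 (-0.76, adjusted p = 0.0458). EBP, a sterol isomerase, read 79.7 and 84.3 against 51.4 and 55.1 (-0.61, adjusted p = 0.0479). These 3 fell, with no overlap between the groups. SQLE, MSMO1, NSDHL, HSD17B7, DHCR7 and TM7SF2 lay at -0.39 to -0.79 without passing. They were also lower with no overlap, as were 33.2% of all genes. SC5D, listed under its older symbol SC5DL, was at -0.04.

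The regulators of the pathway did not pass the threshold. SREBF2, the factor of sterol synthesis, read 69.9 and 64.6 in sh-Ctrl against 43.6 and 45.8 in sh-CBAP cells (-0.58, adjusted p = 0.0591). SREBF1, the factor more tied to fatty acid synthesis, read 33.7 and 33.5 against 25.1 and 25.4 (-0.40, adjusted p = 0.143). INSIG1, which holds SREBP back and is itself a target of it, read 166 and 113 against 68.6 and 93.8 (-0.76, adjusted p = 0.253). All 3 were lower with no overlap between the groups, as were 33.2% of all genes, but the INSIG1 libraries of a group lay far apart. SCAP, the escort protein of SREBP, was at 0.04. SOAT1, which esterifies cholesterol, spread from 13.8 to 30.6 within sh-Ctrl cells and cannot be read here.

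Relative to the mean of the sh-Ctrl libraries, the median of the 29 genes was -0.73 in sh-CBAP replicate 1 and -0.46 in sh-CBAP replicate 2 on the log2 scale. Replicate 1 held the lowest of the 4 values for 23 of the 29 genes. This library was also lower over all genes. The median log2 fold change of all genes was -0.12 without sh-CBAP replicate 2 and -0.0001 without sh-CBAP replicate 1. The list's median was -0.61 and -0.54 at pseudocounts of 0.1 and 5, and -0.51 and -0.55 after quantile and upper quartile scaling. With 1 library left out it was -0.46 to -0.73, and 25 to 27 genes were below 0 under each of these settings. The other settings kept the same 29 genes and values, so they could not move the median. The number of calls depended on the settings. It was 9 in the main fit, 0 when the variance was not estimated robustly and 1 with a replicate block. After quantile and upper quartile scaling it was 4 and 5, and 15 without the genes listed at 0 in 1 library of a pair. With all 8 libraries in the fit it was 20. Leaving out sh-CBAP replicate 1 or 2 left 1 call each, and leaving out either sh-Ctrl library left 4.

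**Figure D2:**
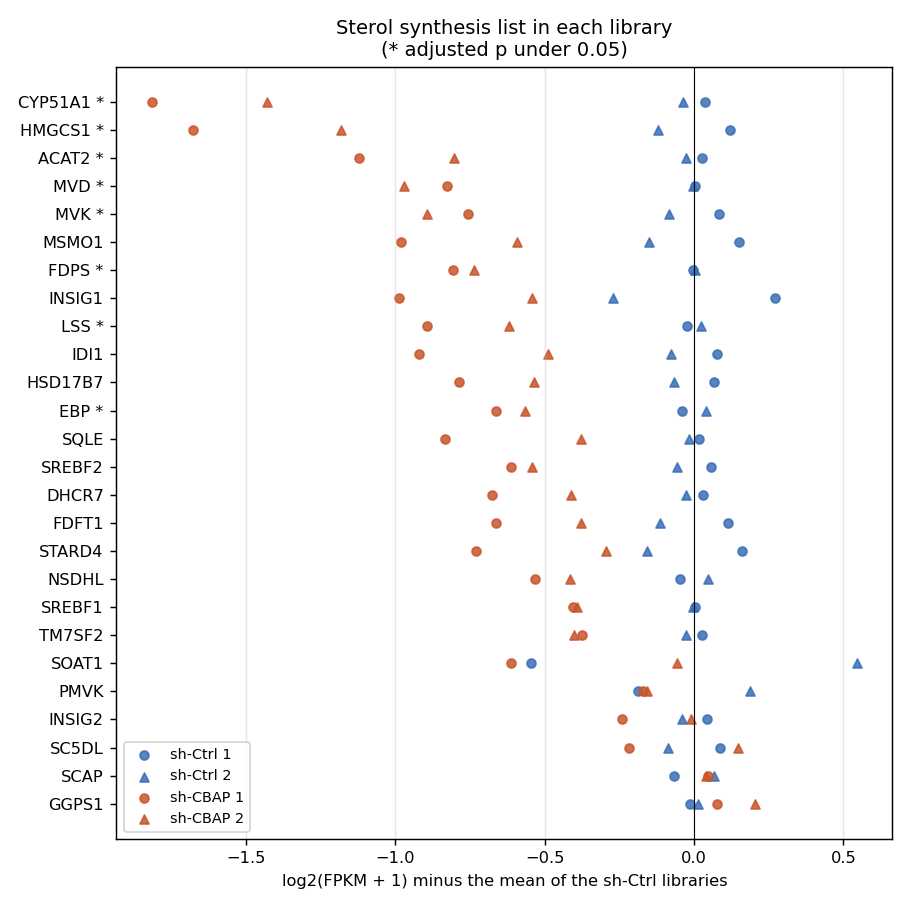
Each row is 1 of 26 of the 29 sterol synthesis genes, and the x axis is its log2(FPKM + 1) in each library minus the mean of the sh-Ctrl libraries. Blue marks are sh-Ctrl and orange marks sh-CBAP libraries (circles replicate 1, triangles replicate 2), and a star marks the 8 genes shown that are past an adjusted p of 0.05. In 20 rows both orange marks lie left of both blue marks.

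Fatty acid genes were shifted in the same direction by less. Of 21 tested genes, 2 fell, against 1.21% of all genes, and none rose. An unadjusted p under 0.05 with a lower level was found for 10 (47.6%), against 12.3% of all genes, and the median log2 fold change was -0.38. SCD, the desaturase that makes oleate, read 144 and 151 in sh-Ctrl and 74.7 and 80.9 in sh-CBAP cells (-0.91, standard error 0.11, adjusted p = 0.0101). FADS2, which desaturates polyunsaturated fatty acids, read 125 and 124 against 70.3 and 66.0 (-0.86, standard error 0.11, adjusted p = 0.0122). Neither gene overlapped between the groups. The span of FADS2 on chromosome 11 overlaps those of FADS1, which was at -0.16, and of FEN1, a replication nuclease at -0.46 (adjusted p = 0.0866). ACLY, which supplies cytosolic acetyl-CoA, read 111 and 111 against 78.2 and 76.9 (-0.51, adjusted p = 0.065), and FASN, fatty acid synthase, 51.3 and 54.9 against 28.6 and 36.6 (-0.70, adjusted p = 0.0736). SLC25A1, the citrate carrier, was at -0.55 (adjusted p = 0.0965) and ACACA, acetyl-CoA carboxylase, at -0.60 (adjusted p = 0.086). None of these 4 passed. Both sh-CBAP libraries lay below both controls in each, as in 14 of the 21 genes (66.7%) and in 33.2% of all genes. HSD17B12 (0.21) and GDPD1 (0.36) lay on the other side of 0 and did not pass either.

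The lipid genes did not move alike in the CRISPR set, where CBAP-KO cells were compared with reconstituted cells. The sterol median was 0.38 there, 26 of the 29 genes were above 0, and the change differed between the sets for 23 by the interaction contrast, against 33.6% of all genes. For 22 of these 23 the signs were opposite. HMGCS1 read 38.9 and 38.8 in reconstituted and 91.2 and 90.6 in CBAP-KO cells (log2 fold change 1.20), and the difference between the changes, shRNA set minus CRISPR set, was -2.63 (standard error 0.23, adjusted p = 0.000489). SCD and FADS2 were at 0.81 and 0.91 in the CRISPR set, while FASN was at -0.88 and SLC25A1 at -0.68, close to their changes in sh-CBAP cells.

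**Figure D3:**
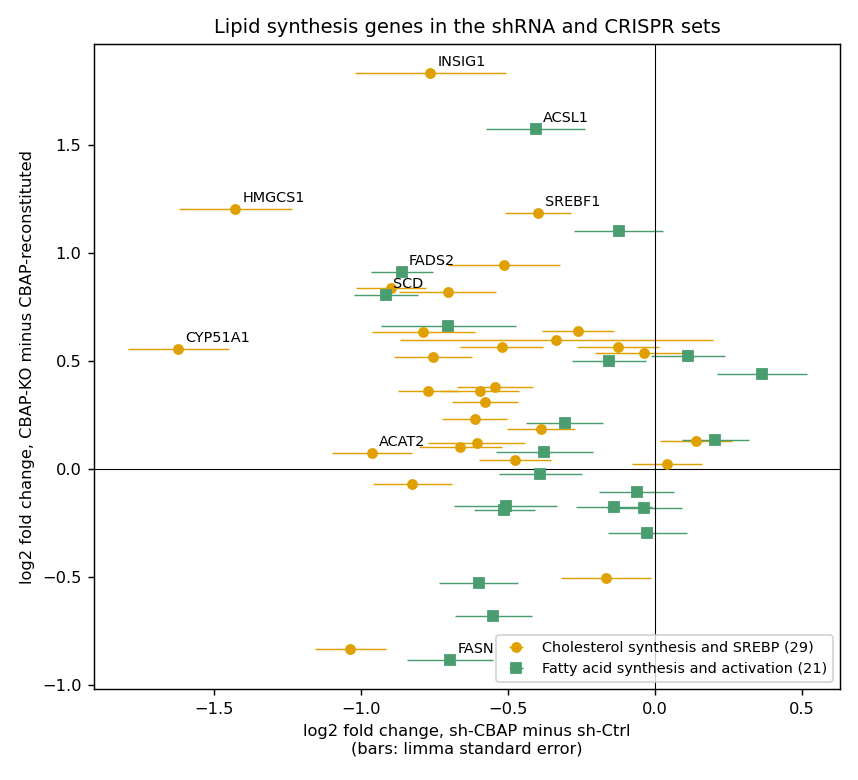
The x axis is the log2 fold change of sh-CBAP minus sh-Ctrl cells with its limma standard error, and the y axis that of CBAP-KO minus CBAP-reconstituted cells, for 29 sterol (circles) and 21 fatty acid (squares) synthesis genes. Most circles sit in the upper left, below 0 in the shRNA set and above 0 in the CRISPR set, while FASN, a square, lies in the lower left.

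Among the genes with the largest change without a listed 0, IL32, which encodes an inflammatory cytokine of lymphocytes, rose most. It is annotated on chromosome 16, plus strand, from 3115298 to 3132193, and read 0.80 and 0.59 in sh-Ctrl against 89.7 and 127 in sh-CBAP cells (log2 fold change 5.99, standard error 0.19, adjusted p = 1.52e-05). SLC38A5, a neutral amino acid transporter, went from 0.74 and 0.74 to 14.3 and 17.9 (3.29, adjusted p = 8.38e-05). Both were also high in CBAP-KO cells, IL32 at 51.4 and 47.4 and SLC38A5 at 19.0 and 20.4, against under 1 in reconstituted cells. PLEK, a substrate of protein kinase C in blood cells, read 0.29 and 1.12 against 7.48 and 6.19 (2.24, adjusted p = 0.0176), and 66.7 and 67.7 in CBAP-KO cells. Its change in sh-CBAP cells passed in 9 of 15 settings. TDRD9, a helicase of the germline small RNA pathway, rose in both sets as well (1.40 and 2.51). The size of the change still differed between the sets for each of these genes by the interaction contrast. The difference, shRNA set minus CRISPR set, was 1.04 for IL32, -0.79 for SLC38A5, -3.33 for PLEK and -1.10 for TDRD9.

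Other increases were not found in the CRISPR set, or were smaller there. DSE, an epimerase of dermatan sulfate synthesis, read 1.69 and 2.38 in sh-Ctrl against 53.9 and 28.7 in sh-CBAP cells (3.74, adjusted p = 0.044). It was at -0.19 in the CRISPR set. LPAR6, a receptor for lysophosphatidic acid inside an intron of RB1, went from 2.76 and 4.07 to 21.996 and 17.6 (2.24, adjusted p = 0.00229) and was at -0.35 there. For both, and for SLC18A2, the vesicular monoamine transporter (1.74 against -0.42), and LGALS3BP, a secreted glycoprotein (1.55 against -0.48), the difference between the sets passed the threshold. LGALS1, galectin-1, rose from 3.99 and 5.26 to 23.6 and 19.4 (adjusted p = 0.00175), and it rose in the CRISPR set as well (log2 fold change 0.84), by less. DSE overlaps TSPYL1 on the other strand, which read 28.0 and 28.0 against 13.0 and 21.1.

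Some of the largest increases belong to genes with near-identical copies or with unstable values, and are uncertain. MCTS1, a translation factor, read 7.86 and 7.09 in sh-Ctrl and 61.5 and 43.2 in sh-CBAP cells (2.63), while its retrocopy MCTS2, given as PSIMCT-1, was at 9.51 and 9.08 against a listed 0 in both. NSL1, a kinetochore subunit, read 5.38 and 4.81 against 36.3 and 38.9 (2.66), but its CBAP-KO libraries were at 36.2 and 0. GOLGA8O (1.99), of a golgin family of close copies, and LOC100996546 (2.05) complete the list. NSL1 and MCTS1 passed under every alternative except the fit of all 8 libraries.

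The T-ALL transcription factors held 3 genes that rose and 1 that fell, of 38 tested, against 0.953% higher and 1.21% lower over all genes. Over the alternatives the list had 1 to 13 calls. LYL1, a basic helix-loop-helix oncogene of T-ALL, was at 0.31 and 0.45 in sh-Ctrl and at 6.75 and 5.02 in sh-CBAP cells (2.31, standard error 0.19, adjusted p = 0.00138). HHEX, a homeobox factor of early T-cell leukemia, read 0.64 and 0.71 against 4.55 and 5.44 (1.84, adjusted p = 0.00221). FLI1, an ETS factor, read 26.8 and 28.4 against 50.4 and 44.9 (0.77, adjusted p = 0.0324). TCF7, a factor of the thymocyte program, fell from 235 and 213 to 121 and 138 (-0.79, adjusted p = 0.0284). The groups did not overlap in any of the 4. In the CRISPR set HHEX and TCF7 moved the other way (-1.75 and 1.81), and LYL1 was at 0.24. The list's median was 0.01, so these genes stood at its edges.

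T-lineage surface and receptor genes gave 2 increases in 45 tested and no decrease, against 0.953% higher over all genes, and none passed without robust variance. TRAT1, an adaptor that stabilises the T-cell receptor, read 19.2 and 24.5 against 46.0 and 50.6 (1.12, adjusted p = 0.0176), and the adhesion receptor CD2 22.7 and 21.2 against 47.7 and 39.1 (0.95, adjusted p = 0.0253). The proximal kinases LCK (303 and 289 against 221 and 218) and ZAP70 (180 and 195 against 132 and 153) lay at -0.43 and -0.39 and did not pass. PLCG1, their substrate, was at 0.14. CD1C, which presents lipid antigens and marks cortical thymocytes, fell from 18.0 and 13.2 to 2.52 and 4.51 (-1.90, adjusted p = 0.049), at the edge of the threshold and past it in 6 of 16 settings.

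Adhesion and migration genes held 3 increases in 31 tested, against 0.953% over all genes, and none passed without robust variance. CCR4, a chemokine receptor, read 2.67 and 2.95 against 11.6 and 7.01 (1.40, adjusted p = 0.0479), and passed in 6 of 16 settings. ITGAL, the alpha chain of LFA-1, read 6.58 and 7.25 against 13.5 and 15.9 (0.98, adjusted p = 0.0216), and RAP1B, a GTPase that activates integrins, 64.5 and 67.7 against 104 and 100.4 (0.62, adjusted p = 0.0406). All 3 were above both controls in both sh-CBAP libraries. CXCR4, the receptor of the chemokine CXCL12, overlapped between the groups, at 250.6 and 184 in sh-Ctrl and 144 and 217.5 in sh-CBAP cells.

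The interferon and RNA-sensing list, included since both arms carry an shRNA, held 4 calls, all higher, in 38 tested, against 0.953% higher over all genes. IFITM2 read 32.2 and 32.5 in sh-Ctrl and 59.1 and 73.9 in sh-CBAP cells (1.01, adjusted p = 0.0195), and IFITM3 7.90 and 8.08 against 15.8 and 14.1 (0.83, adjusted p = 0.0308). Both are membrane proteins that restrict virus entry and have near-identical sequences. The other 2, IFNAR2 and MAVS, were listed at 0 in both sh-Ctrl libraries. ISG15, a common marker of the response, read 133 and 158 against 118 and 105 and did not pass. No gene of the small RNA machinery passed in 14 tested, and none of the HLA class I list in 17.

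Among the genes that fell most, MPPED2, a metallophosphoesterase, went from 10.95 and 9.90 to 1.12 and 1.02 (log2 fold change -2.46, standard error 0.14, adjusted p = 0.000232). AMOTL1, an angiomotin-like scaffold of the Hippo pathway, went from 9.78 and 8.34 to 0.88 and 0.77 (-2.46, adjusted p = 0.000346). FAT1, an atypical cadherin, was more abundant, at 63.1 and 54.0 against 15.3 and 16.4 (-1.82, adjusted p = 0.000721). ZNRF1, a ubiquitin ligase, fell from 96.4 and 99.6 to 36.3 and 34.2 (-1.45, adjusted p = 0.000936). TSPYL5, of the nucleosome assembly family, fell from 14.2 and 14.2 to 3.91 and 4.15 (-1.60, adjusted p = 0.00131). These 5 passed under every alternative run, of which the minimum mean FPKM of 5 left AMOTL1 out. In the CRISPR set AMOTL1 (-1.85) and FAT1 (-0.36) fell as well, TSPYL5 rose (0.68), and MPPED2 (0.11) and ZNRF1 (-0.16) did not pass.

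The other large decreases were of genes with varied roles. EPHB2, an ephrin receptor, read 4.66 and 3.35 in sh-Ctrl and 0.65 and 0.33 in sh-CBAP cells (-1.74, adjusted p = 0.00952). FGFR1 read 5.72 and 6.59 against 1.85 and 1.53 (-1.41, adjusted p = 0.00703). Both were higher in CBAP-KO than in reconstituted cells, by 2.15 and 0.97. NPW, a neuropeptide precursor, read 8.13 and 8.30 against 1.02 and 2.44 (-1.81, adjusted p = 0.0419), and GSC, a homeobox factor, 9.10 and 6.64 against 1.23 and 2.23 (-1.71, adjusted p = 0.0264), and both fell in the CRISPR set too (-5.77 and -2.65). NPW passed in 6 of 15 settings and GSC in 9 of 15. ERP44, a chaperone of the early secretory pathway, fell from 24.3 and 30.3 to 7.99 and 9.15 (-1.56). FAM219B (-1.67) and GCA, a calcium-binding protein of granulocytes (-1.39), complete this group. They passed in 11 of 15 and 8 of 15 settings.

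The kinases and targets at the centre of the study's signalling model did not pass. None of 54 tested genes of the AKT, TSC, RHEB and mTOR list was called, and its median of -0.07 was close to that of all genes. TSC1 read 5.78 and 6.34 against 5.95 and 6.35, TSC2 10.6 and 12.4 against 10.5 and 13.2, and RHEB 16.9 and 17.6 against 16.1 and 19.0. The groups overlapped for all 3, and for AKT1 (81.7 and 87.9 against 82.0 and 90.1). MTOR was at -0.19 (adjusted p = 0.466), RPS6KB1 at 0.17 (adjusted p = 0.601) and EIF4EBP1 at -0.33 (adjusted p = 0.216). These are transcript levels, and the activity of the proteins was not measured by these libraries.
MYC read 148 and 165 in sh-Ctrl and 125 and 137 in sh-CBAP cells (-0.25, adjusted p = 0.328), and HIF1A 27.5 and 28.2 against 39.2 and 51.0 (0.67, adjusted p = 0.0851). Both pairs of groups were apart, MYC lower and HIF1A higher, without passing. Of all genes 33.2% were apart and lower and 17.5% apart and higher. BCL2 was at 0.18 (adjusted p = 0.547). No member passed in the MYC network (15 tested, median -0.08), the ERK feedback list (18, 0.04), the FOXO list (25, 0.10), the hypoxia list (18, -0.27) or the list of G1 cyclins and CDK inhibitors (23, -0.08). These lists were not all flat at an unadjusted p under 0.05. Of the ERK feedback genes 6 (33.3%) were lower at such a p, against 12.3% of all genes, and 1 was higher. Lower shares were 27.8% for hypoxia, 26.1% for G1 cyclins and 6.67% for the MYC network. Of the FOXO genes 6 (24%) were higher, against 5.33% of all genes, and none was lower. In the RAS to RSK list of 28 (median 0.05) and the apoptosis list of 32 (median -0.07) the only calls, PAK2 and CFLAR, were genes listed at 0 in both sh-Ctrl libraries.

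Glycolysis, which turns glucose into pyruvate and is driven in T-ALL cells, had no call among 29 genes. Both sh-CBAP libraries lay below both controls for 17 (58.6%), against 33.2% of all genes, and 24 (82.8%) were below 0, against 60.0%. An unadjusted p under 0.05 with a lower level was found for 6 (20.7%), against 12.3%. The median was -0.21. TPI1, triose phosphate isomerase, read 212 and 188 against 141 and 130 (-0.55, adjusted p = 0.0687). ALDOA (-0.21), PFKL (-0.23), PFKP (-0.15), PGM1 (-0.13) and the glucose transporter SLC2A1 (-0.22) had adjusted p values of 0.369 to 0.622, also with no overlap between the groups. The 10 pentose phosphate genes had no call and a median of -0.04.

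Other biosynthetic and catabolic lists were shifted in the same direction without a call. Serine synthesis and one-carbon genes had a median of -0.31 over 17 tested, with 11 (64.7%) apart and lower, against 33.2% of all genes, and 7 (41.2%) with a lower level at an unadjusted p under 0.05, against 12.3%. Branched-chain amino acid degradation had -0.29 over 25 tested, with 17 (68.0%) apart and lower and 9 (36.0%) at such a p. Of 50 DNA replication genes 31 (62.0%) were apart and lower and 46 (92.0%) below 0, against 60.0% of all genes, but 9 (18.0%) had an unadjusted p under 0.05 with a lower level, and the median was -0.17. Relative to the median of all genes these 3 lists, glycolysis and both lipid lists lay below 0 under each of the 17 settings. So did the hypoxia, G1 cyclin (-0.02 in the main fit), citrate cycle and oxidative phosphorylation lists. The T-lineage, RAS to RSK, FOXO, HLA class I, interferon, cytokine receptor and adhesion lists lay above 0 under each. In the last 3, 26.3%, 21.4% and 25.8% of genes were higher at an unadjusted p under 0.05, against 5.33% of all genes. Lower at such a p were 5.26%, 10.7% and 6.45%, against 12.3%. Settings that alter only the variance cannot move these medians. Mitosis had 2 genes that fell in 47 tested (median -0.17), against 1.21% of all genes: UBE2C, a ubiquitin-conjugating enzyme of anaphase, from 192 and 168 to 84.9 and 84.3 (-1.08, adjusted p = 0.00565), and NDC80, a kinetochore protein, from 31.5 and 27.6 to 13.6 and 16.7 (-0.92, adjusted p = 0.0324). Relative to all genes the mitosis list crossed 0 without sh-Ctrl replicate 1.

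The translation and respiration lists lay near the median of all genes. The median was 0.01 for 76 cytosolic ribosomal proteins, -0.04 for 22 tRNA synthetases, -0.05 for 36 proteasome genes, -0.10 for 30 RNA polymerase subunits, -0.10 for 30 citrate cycle genes and -0.10 for 68 nuclear subunits of oxidative phosphorylation. No member passed except UQCR11, which was listed at 0 in both sh-Ctrl libraries. In the CRISPR set the ribosomal, proteasome and oxidative phosphorylation medians were -0.59, -0.51 and -0.50. The stress and amino acid transport list of 36 (median 0.02) held 2 increases, SLC38A5 and XBP1, a factor of the unfolded protein response, from 30.4 and 33.7 to 68.3 and 58.3 (0.96, adjusted p = 0.0193). The cytokine receptor list of 28 (median 0.17) held IL32, IL10RB, listed at 0 in sh-Ctrl, and IL9R, which fell from 14.4 and 16.2 to 6.84 and 7.98 (-0.95, adjusted p = 0.0255).

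Genes listed at 0 in both libraries of a group and at an FPKM of 5 or more in both of the other numbered 37 for sh-Ctrl and 8 for sh-CBAP. No fold is given for them. The 6 most abundant of the first kind, with their values in sh-CBAP cells, were NUDT21, a cleavage factor of polyadenylation, at 59.7 and 79.3, LRRC33 at 71.1 and 44.3, MBD3, a subunit of the NuRD complex, at 61.5 and 52.6, UQCR11, of respiratory complex III, at 53.1 and 45.2, TMED4 at 46.5 and 41.6, and PAK2, a kinase downstream of RAC and CDC42, at 41.1 and 44.01. Of the 37 genes, 21 were at 5 or more in all 4 libraries of the CRISPR set. For 21 of the 37 a gene within 10000 bases had the same pattern of zeros, among them MBD3 with UQCR11, TMED4 with DDX56, PAK2 with PIGX, and IFNAR2 with IL10RB. Such zeros came in neighbouring pairs more than once, and whether they are absent transcripts or values that were not estimated was not tested.

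In the other direction, HNRNPD, an RNA-binding protein that controls mRNA decay, read 341 and 353 in sh-Ctrl cells and was listed at 0 in both sh-CBAP libraries and in 1 of the CBAP-KO libraries, with 446 in the other. C11orf48 read 80.8 and 98.0, UBXN1 76.4 and 78.7, ADCK4 18.1 and 19.0 and ULBP2 6.64 and 7.59 in sh-Ctrl cells, each against 0 and 0. Of the 8 genes of this kind 6 could be located, and 1 of these, ADCK4, had a neighbour with the same pattern. C11orf48, which was not located, and UBXN1 were listed at 0 in the same libraries of all 8.

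Of the 60 genes without a listed 0 that rose in sh-CBAP cells, 33 also rose in CBAP-KO against reconstituted cells, where 23.9% of all genes rose, and 11 fell. Of the 123 that fell, 51 also fell there, where 25.9% of all genes fell, and 33 rose. By the interaction contrast the size of the change was different in the CRISPR set for 44 of the 60 and 85 of the 123. The share over all genes was 33.6%. The called genes were chosen for their change in the shRNA libraries, which enter this contrast, so their shares cannot be set against that of all genes. The sets share no library, but the clones behind them are different, and TMEM102 was listed at 0 throughout the CRISPR set, so that its labels were not checked on the targeted gene.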

How the data were processed

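RNA-seq was made from Jurkat cells, and the comparison used 2 sh-Ctrl and 2 sh-CBAP libraries, with 4 CRISPR libraries for the difference between sets. Per the study's methods, the deposited FPKM values were made by the authors with cuffdiff, after TopHat 2 had placed the paired reads, 100 bases each, on hg19. CASAVA 1.8 is named in the submitters' processing notes. The Cufflinks version, the annotation and strand use are not given in the sources used here. No read totals are in the values, so depth is unknown.

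Genes whose FPKM averaged 1 or more in the 4 libraries were tested on log2(FPKM + 1) with limma 3.58.1 in R 4.3.3, with a mean per condition, an empirical Bayes trend and robust variance, and Benjamini-Hochberg adjustment over 11223 genes (adjusted p under 0.05). Only the 4 libraries entered this fit. The interaction contrast used all 8. On simulated data of this design the fit made more false calls than the nominal share. Replicates carry separate clone codes, and p-values measure only the spread between these libraries. Tables were made with Python 3.11.15 and pandas 2.3.3.

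Genes were named as the 15 of largest change each way among those past the threshold with no overlap and no listed 0, the 6 most abundant each way listed at 0 in a whole group, up to 3 called members a list, and defining members of the pathways. Further members of the sterol, fatty acid and other lists were named after their values were seen. The members and lists were chosen with earlier results of these data known. Coordinates are GENCODE positions lifted to GRCh37, the build of hg19, found for 12339 of 13453 names. Of 1060 list symbols 999 were found, 6 by an older symbol. The 195 joint entries were not split. Some results on single genes are not reported here. Promoter windows are RefSeq's, on GRCh38.p14. Alternatives were other pseudocounts, filters, scalings and variance settings, a replicate block, and leaving out each library.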

Additional observations from a re-analysis of the deposited data

Results flagged for a closer look

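The change of 45 named genes differed between the shRNA set and the CRISPR set by the limma interaction contrast (adjusted p under 0.05), out of 65 named genes with a value above 0 in all 8 libraries. The same contrast passed for 33.6% of all genes tested, so a difference between the sets was common. Many named genes were chosen for their change in the shRNA libraries that enter this contrast, so their share cannot be set against it. Each value in parentheses is the log2 fold change of sh-CBAP against sh-Ctrl cells minus that of CBAP-KO against reconstituted cells.

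Among the genes that rose in sh-CBAP cells these were IL32 (1.04), DSE (3.94), SLC38A5 (-0.79), LYL1 (2.07), LPAR6 (2.59), PLEK (-3.33), LOC100996546 (1.86), LGALS1 (1.16), SLC18A2 (2.16), LGALS3BP (2.03), TDRD9 (-1.10), TRAT1 (1.23), CD2 (-1.85), XBP1 (-0.80), CCR4 (2.77), ITGAL (-2.32) and RAP1B (-0.46). Among the genes that fell they were MPPED2 (-2.58), AMOTL1 (-0.61), CD1C (-2.28), FAT1 (-1.46), NPW (3.96), EPHB2 (-3.89), FAM219B (-2.39), CYP51A1 (-2.18), TSPYL5 (-2.28), ERP44 (-1.94), ZNRF1 (-1.29), HMGCS1 (-2.63), FGFR1 (-2.37), TCF7 (-2.59), SCD (-1.72), FADS2 (-1.77), IL9R (-1.73), UBE2C (-1.06) and NDC80 (-0.59). The named genes that did not pass in the shRNA set but differed between the sets were TSC2 (-0.61), EIF4EBP1 (-0.40), HIF1A (0.64), BCL2 (-0.76), ZAP70 (-0.96), CXCR4 (-1.39), PFKP (0.58), SLC2A1 (0.48) and ACLY (-0.32). The clones and the method of lowering CBAP both differ between the sets and cannot be told apart. With 2 libraries a group no sample was tested for standing apart from its group.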

How the results depend on the processing

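The count of 243 genes past the threshold (107 higher, 136 lower) depended on the settings. It was 132 (92 and 40) after quantile normalization, 126 (88 and 38) after upper quartile scaling, 86 (65 and 21) without robust variance, 1421 (425 and 996) with all 8 libraries in the fit and 538 (195 and 343) without the genes listed at 0 in 1 library of a pair. Without genes listed at 0 in any of the 4 libraries, an alternative chosen after seeing the data, it was 461 (142 and 319). Leaving out 1 library gave 140 to 231 genes, 78 to 123 higher and 62 to 138 lower, of which 68 to 123 were shared with the 243. The lone library left in a group is assumed to vary like the other group. The share of higher calls was 44.03% in the fit reported and 69.7%, 69.8%, 75.6% and 29.9% under the first 4 settings. The cause was not tested. Replicate numbers are shared by the groups, but each library has its own clone code. Whether the codes name separate clones or passages is not given in the sources used here. With a replicate block 84 genes passed (61 and 23), and 2381 in place of 3775 genes differed between the sets. Same-numbered libraries deviated together with r = 0.144 over genes, from a single set of 2 numbers. TMEM102 was at -0.51 in the fit of all 8 libraries, with a limma adjusted p of 0.0302, and has no value under a minimum mean FPKM of 5. When 1 library was left out, TSC1 ranged from -0.038 to 0.075, TSC2 from -0.12 to 0.19, RHEB from -0.092 to 0.13, AKT1 from -0.047 to 0.088 and CXCR4 from -0.57 to 0.017, each with a change of sign. Of the values of named genes over all alternatives, 1111 kept direction and side of the threshold, 168 lost the threshold, 21 gained it and 9 changed sign. Depth is unknown, and 2 libraries a group limit the precision.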
